A study of Mus musculus with 9 samples.

Results

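The Notch signalling and secretory fate genes described here were 10 genes of the small intestinal crypt: the receptors Notch1 and Notch2, the Notch targets Hes1 and Nrarp, the ligands Dll1, Dll4 and Jag1, and the secretory fate factors Atoh1, Gfi1 and Spdef. They were found by their Ensembl identifiers, named with the GENCODE M21 annotation, among the 57180 identifiers of a table of gene counts, and all 10 had enough counts to be tested among 13405 genes. The table held 9 RNA-seq libraries of sorted Lgr5-GFP+ cells from mouse small intestine, 3 in each of 3 groups. Every mouse carried the Lgr5-EGFP-CreERT2 transgene, which places a tamoxifen-activated Cre recombinase and a green fluorescent protein under the control of the stem cell gene Lgr5, together with floxed alleles of Kansl1 (Kansl1 f/f). KANSL1 is a subunit of the nonspecific lethal (NSL) complex, which acetylates histone H4. The KO day 3 and KO day 4 mice, labelled KANSL1-KO, received daily tamoxifen for 3 and 4 days, and the control mice, labelled KANSL1-WT, received corn oil and so kept the same unrecombined alleles. Loss of Kansl1 and exposure to tamoxifen therefore cannot be told apart in these groups, and the Cre acts in Lgr5-expressing cells, whose descendants inherit the deletion. The ages, sexes and numbers of mice behind each library are not given in the sources used here, so the p-values measure the spread between libraries, which may be technical.

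Notch signalling works by contact between neighbouring cells. A Delta or Jagged ligand on one cell binds a Notch receptor on the next, the receptor is cut by an ADAM protease and then by gamma-secretase, and the released intracellular domain joins the DNA-binding protein RBPJ to switch on targets such as Hes1 and Nrarp. In the crypt, HES1 represses Atoh1, so cells with active Notch remain progenitors or become absorptive, while cells that escape the signal express Atoh1 and enter the secretory lineages, which are the Paneth, goblet and enteroendocrine cells. GFI1 and SPDEF act downstream of ATOH1, and the secretory precursors carry the Delta ligands that keep Notch active in their neighbours.

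The secretory factors Atoh1, Gfi1 and Spdef rose and the receptor Notch1 fell at KO day 4 relative to control libraries and to the bulk of genes, while scaling by library size alone put Atoh1 and Spdef at log2 fold changes of -0.67 and -0.15. The promoters of these 4 genes are shown because they are the members that passed the test between those groups. The sequences are the RefSeq bases upstream of a transcription start on build GRCm38.p6, up to 250 bases, with any bases inside annotated exons removed. Notch1 lies on the minus strand of chromosome 2 and its stretch is chr2:26503825-26504072. Atoh1 lies on the plus strand of chromosome 6 and its stretch is chr6:64728875-64729124. Gfi1 lies on the minus strand of chromosome 5, and 1 of its 2 RefSeq starts is shown, with the stretch chr5:107724344-107724593. Spdef lies on the minus strand of chromosome 17 and its stretch is chr17:27728956-27729201. Each is written 5′ to 3′ along the gene, in lower case, with capitals on matches to the E-box CANNTG, the RBPJ core TGGGAA or the N-box CACNAG on either strand.
Notch1: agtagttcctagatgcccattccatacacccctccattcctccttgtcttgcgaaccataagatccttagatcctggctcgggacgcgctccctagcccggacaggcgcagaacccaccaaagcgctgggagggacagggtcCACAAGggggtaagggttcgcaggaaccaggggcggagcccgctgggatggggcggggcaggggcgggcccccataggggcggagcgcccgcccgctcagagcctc
Atoh1: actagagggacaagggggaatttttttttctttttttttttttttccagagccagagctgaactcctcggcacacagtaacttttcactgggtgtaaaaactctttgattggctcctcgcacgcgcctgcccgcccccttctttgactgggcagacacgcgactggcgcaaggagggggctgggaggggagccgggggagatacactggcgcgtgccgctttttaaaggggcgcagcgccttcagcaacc
Gfi1: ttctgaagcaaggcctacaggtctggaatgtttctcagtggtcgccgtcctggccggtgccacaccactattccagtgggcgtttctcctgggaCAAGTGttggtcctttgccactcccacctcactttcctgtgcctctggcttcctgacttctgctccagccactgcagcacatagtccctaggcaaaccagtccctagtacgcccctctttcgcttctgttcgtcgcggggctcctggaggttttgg
Spdef: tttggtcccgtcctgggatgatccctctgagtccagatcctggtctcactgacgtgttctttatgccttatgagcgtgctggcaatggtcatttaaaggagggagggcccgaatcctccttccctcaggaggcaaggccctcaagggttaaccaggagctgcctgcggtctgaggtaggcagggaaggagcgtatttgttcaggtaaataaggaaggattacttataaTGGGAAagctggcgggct
The E-box is the kind of site bound by ATOH1, the RBPJ core is part of the site bound by the Notch effector RBPJ, and the N-box is a site bound by HES proteins. In these stretches Notch1 held 1 N-box at position -108 from the start, Gfi1 held 1 E-box at -156, Spdef held 1 RBPJ core at -22, and Atoh1 held none of the 3 motifs. Neither of the more specific forms searched, GTGGGAA for RBPJ and CAGCTG for the E-box, occurred in the 4 stretches. The Gfi1 start that is not shown held 1 E-box, at -42. Any E-box was present in 66.2% of 32851 RefSeq promoter windows of 250 bases, the N-box in 36.7%, the RBPJ core in 21.6%, the CAGCTG form in 13.0% and the GTGGGAA form in 5.42%. RefSeq promoter entries matched 9 of the 10 members, and Hes1 was the one without.

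The libraries differed in ways that bear on every value below. Total counts ran from 8400458 to 21484679, and the share of counts from mitochondrially encoded genes was 66.9 to 72.1% at KO day 4, 19.0 to 32.4% at KO day 3 and 16.4 to 25.8% in controls, which left 3115374 to 5614186 counts in nuclear genes at KO day 4 against 9996919 to 13980785 in controls. Values are therefore given as CPM, the read count divided by a library size and put on a common scale, with that size adjusted by TMM, a method that sets the bulk of genes equal between libraries, and fold changes are relative to that bulk. KO day 3 replicate 1 and KO day 4 replicate 3 stood apart from the other libraries of their groups, with correlations of 0.937 to 0.941 and of 0.897 to 0.903 against 0.979 and 0.951 for the other pair of the group. Kansl1 itself had 2.81, 2.99 and 2.55 CPM at KO day 3, 2.93, 5.09 and 8.96 CPM at KO day 4, and 4.46, 11.4 and 9.83 CPM in controls. Every KO day 3 library was below every control library, but the KO day 4 values overlapped the controls, and neither difference passed edgeR's quasi-likelihood test after Benjamini-Hochberg adjustment (adjusted p = 0.12 and 0.34). The sources used here do not give the exons removed by Cre, so a gene-level count is a weak check of the deletion. Lgr5, the gene behind the sort, had 22.3, 26.7 and 14.8 CPM at KO day 4 and 30.6, 34.8 and 39.3 CPM in controls (adjusted p = 0.092).

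Of the 10 genes, 3 rose and 1 fell at KO day 4 against control at an adjusted p under 0.05 over all 13405 genes (edgeR quasi-likelihood F-test). Among all tested genes 22.5% passed in that comparison, 11.1% of all being higher and 11.5% lower at KO day 4, so passing was common there. At an unadjusted p under 0.05 there were 5 of the 10, the fifth being Hes1, beside 36.5% of all genes. The directions followed role: the 3 that rose were the 3 secretory factors, and none of the 7 receptors, targets and ligands rose, whereas with library size alone those 7 all passed as lower and no secretory factor passed. The values of all 10 genes are drawn by library in the plot of CPM by group.

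**Figure D1:**
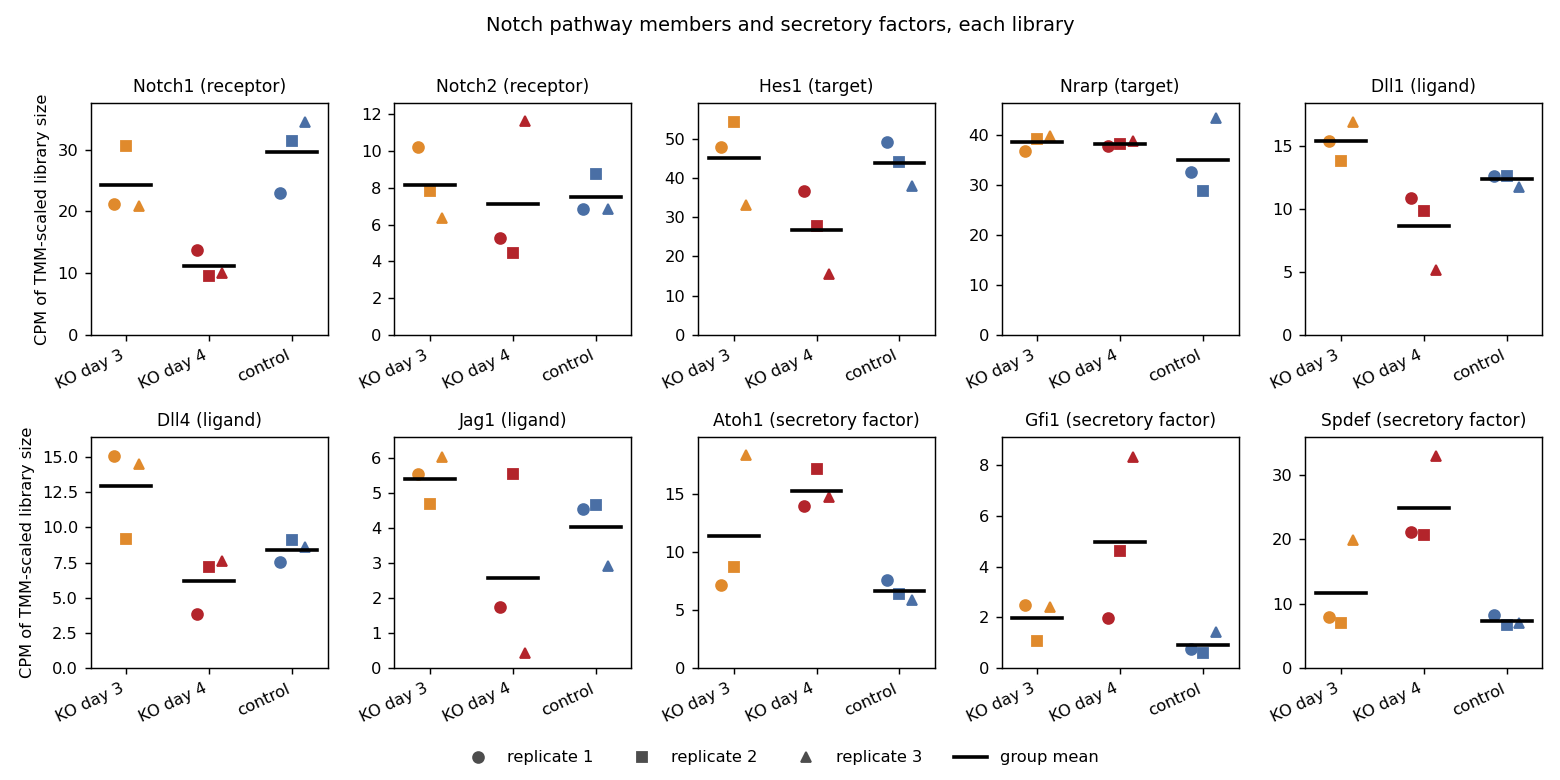
CPM of the TMM-scaled library size for each of the 10 genes in KO day 3, KO day 4 and control libraries (3 each); each point is 1 library, its shape gives the replicate number and the bar is the group mean. Atoh1, Gfi1 and Spdef are above every control library in all 3 KO day 4 libraries on this scale, and Notch1 is below; with library size alone the log2 fold changes of Atoh1 and Spdef were below 0 (-0.67 and -0.15).

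Atoh1, the basic helix-loop-helix factor required for all secretory lineages, lies at chr6:64729125-64731245 (GRCm38, plus strand). It had 13.9, 17.2 and 14.8 CPM at KO day 4 against 7.57, 6.38 and 5.93 CPM in controls. All 3 KO day 4 libraries were above the highest control. Its mean was 15.3 ± 1.67 CPM at KO day 4 and 6.63 ± 0.849 CPM in controls (SD, n = 3 each), a log2 fold change of 1.21 (SE 0.34, edgeR adjusted p = 0.028). The call was lost without KO day 4 replicate 2 (adjusted p = 0.080) and without control replicate 1, 2 or 3 (adjusted p = 0.061, 0.091 and 0.097), while the log2 fold change stayed between 1.10 and 1.31 over the 9 fits that each left out a library. With library size alone the value was -0.67 (adjusted p = 0.095), while the median over all genes was -1.95.

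Spdef, an Ets family factor needed for goblet and Paneth cell maturation, lies at chr17:27714352-27728955 (GRCm38, minus strand). It had 21.1, 20.7 and 32.9 CPM at KO day 4 against 8.31, 6.74 and 6.96 CPM in controls. The lowest KO day 4 library was well above the highest control, and KO day 4 replicate 3 was the highest of all. Its mean was 24.9 ± 6.95 CPM at KO day 4 and 7.34 ± 0.848 CPM in controls (SD, n = 3 each), a log2 fold change of 1.76 (SE 0.39, edgeR adjusted p = 0.0091). It passed in each of the 9 fits with a library left out, with adjusted p between 0.0022 and 0.041, and not with library size alone (-0.15, adjusted p = 0.72).

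Gfi1, a zinc-finger repressor that separates goblet and Paneth from enteroendocrine fate and is also expressed in blood cells, lies at chr5:107716657-107726036 (GRCm38, minus strand). It was the scarcest secretory factor, with 17, 29 and 37 counts at KO day 4 and 20, 18 and 32 counts in controls. Scaled to CPM these were 1.99, 4.61 and 8.28 at KO day 4 against 0.776, 0.595 and 1.44 in controls. The groups did not overlap, and the KO day 4 libraries spread over a wide range. The log2 fold change was 2.38 (SE 0.65, edgeR adjusted p = 0.024), or 0.42 with library size alone (adjusted p = 0.56). The call was lost without KO day 4 replicate 3 (log2 fold change 1.80, adjusted p = 0.072), without control replicate 1 or 2 (2.26 and 2.13, adjusted p = 0.085 and 0.094) and without both libraries that stood apart (1.81, adjusted p = 0.0502). Summed counts of 15 mast cell markers were 540, 1024 and 1570 CPM of nuclear gene counts in the 3 KO day 4 libraries. In controls they were 0.200 to 0.930. Their KO day 4 order was that of Gfi1. The enteroendocrine (476, 618, 847), tuft (215, 248, 551) and other immune (63.6, 94.5, 165) marker sums ran in that order too. The Paneth and goblet sums were lowest in replicate 2 instead. The part of any of these cells in the Gfi1 difference was not tested.

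Notch1, the main receptor of crypt stem cells together with Notch2, lies at chr2:26457903-26516663 (GRCm38, minus strand). It had 13.7, 9.54 and 10.1 CPM at KO day 4 against 23.0, 31.4 and 34.5 CPM in controls. All 3 KO day 4 libraries were below the lowest control. Its mean was 11.1 ± 2.27 CPM at KO day 4 and 29.6 ± 5.93 CPM in controls (SD, n = 3 each), a log2 fold change of -1.41 (SE 0.25, edgeR adjusted p = 0.0034). It passed in all 20 alternative fits, with adjusted p no higher than 0.017. Notch2, at chr3:98013527-98150361 (GRCm38, plus strand), behaved otherwise, with 5.27, 4.45 and 11.6 CPM at KO day 4 against 6.87, 8.76 and 6.87 CPM in controls. KO day 4 replicate 3 was above every control while the other two were below every control, and the log2 fold change was -0.10 (SE 0.38, adjusted p = 0.87).

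The targets Hes1 and Nrarp parted in their values, though neither passed. Hes1, the repressor of Atoh1, lies at chr16:30064384-30067796 (GRCm38, plus strand). It had 36.7, 27.8 and 15.4 CPM at KO day 4 against 49.2, 44.2 and 37.9 CPM in controls. All 3 KO day 4 libraries were below the lowest control, but the highest of them, at 36.7 CPM, was only just below its 37.9 CPM. The spread among the KO day 4 libraries was much wider than that gap. The log2 fold change was -0.70 (SE 0.29, edgeR adjusted p = 0.10). Hes1 passed in 1 of the 9 fits with a library left out, that without KO day 4 replicate 1 (-1.01, adjusted p = 0.038). Without KO day 4 replicate 3 its log2 fold change was -0.44 (adjusted p = 0.22). Nrarp, a negative-feedback target that binds the Notch intracellular domain, lies at chr2:25180758-25183339 (GRCm38, plus strand). It had 37.9, 38.2 and 38.7 CPM at KO day 4, all inside the control range of 32.6, 28.9 and 43.4 CPM. Its log2 fold change was 0.13 (SE 0.18, adjusted p = 0.64), or -1.77 with library size alone. The difference between the changes of Hes1 and Nrarp was not tested.

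None of the 3 ligands passed at KO day 4 against control. Dll1, one of the Delta ligands carried by secretory precursors, lies at chr17:15367354-15376872 (GRCm38, minus strand) and had 10.9, 9.86 and 5.15 CPM at KO day 4 against 12.6, 12.7 and 11.8 CPM in controls. Every KO day 4 library was below every control, with a log2 fold change of -0.50 (SE 0.27, edgeR adjusted p = 0.21). Dll4, the other crypt Delta ligand, lies at chr2:119325784-119335962 (GRCm38, plus strand) and had 3.87, 7.15 and 7.61 CPM at KO day 4 against 7.57, 9.09 and 8.62 CPM in controls, overlapping by 1 library (log2 fold change -0.46, SE 0.32, adjusted p = 0.32). Jag1, a Jagged ligand, lies at chr2:137081456-137116644 (GRCm38, minus strand) and had 15, 35 and 2 counts at KO day 4, too few for a stable value: 1.76, 5.56 and 0.448 CPM against 4.54, 4.66 and 2.92 CPM in controls (adjusted p = 0.50). Dll4 and Jag1 are also expressed by endothelium, and the summed level of 10 endothelial markers was 24.05 to 58.4 CPM of nuclear gene counts at KO day 4 against 27.7 to 33.8 in controls. Of the 3 that were tested, Pecam1, which leukocytes also express, rose, with 154 counts over the KO day 4 libraries and 4 over the controls (edgeR adjusted p = 0.0015), while Egfl7 and Esam did not pass. Kdr and Tek had 17 and 5 counts at KO day 4 and none in controls, and Cdh5, Emcn and Cldn5 had none in any library. The part of endothelial RNA in the Dll4 and Jag1 values was not tested. A gene on the strand opposite to Dll4, Gm14207, shares exon bases with it. Gm14207 had 29, 21 and 28 counts at KO day 4 and 75, 70 and 38 counts in controls. Scaled to CPM these were 3.40, 3.34 and 6.27 at KO day 4 against 2.91, 2.31 and 1.71 in controls. Every KO day 4 library was thus above every control, unlike Dll4. The sources used here do not say whether counting used strand, so the reads of these genes may not be fully separated.

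Counting libraries instead of fits, 6 of the 10 genes had groups that did not overlap at KO day 4 against control, beside 47.0% of all tested genes. The 3 secretory factors had every KO day 4 library above every control (20.6% of all genes did), and Notch1, Hes1 and Dll1 had every KO day 4 library below (26.4% of all genes did). The median log2 fold change of the 10 was -0.28, beside -0.06 over all tested genes. The fitted differences of all 10 genes are drawn with their errors in the plot of log2 fold changes.

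**Figure D2:**
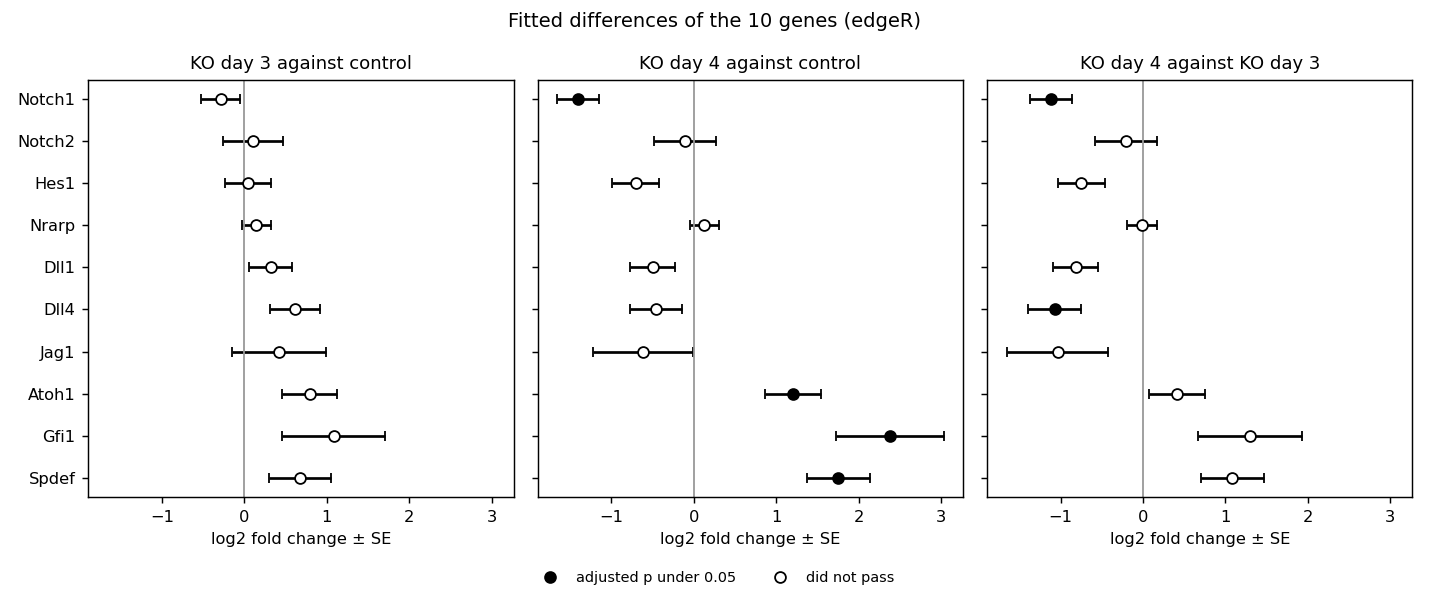
Log2 fold change (edgeR) of each of the 10 genes in the 3 comparisons, with bars of 1 SE; filled points have an adjusted p under 0.05 over 13405 genes. Against control, Spdef, Gfi1 and Atoh1 are right of 0 and Notch1 left of 0 at KO day 4 (with library size alone Atoh1 and Spdef were at -0.67 and -0.15), and no gene is filled at KO day 3.

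None of the 10 genes passed at KO day 3 against control, where 59 of 13405 genes did (0.440%, with 0.142% higher and 0.298% lower). At an unadjusted p under 0.05 there was 1 of the 10, beside 15.8% of all genes. That gene was Atoh1, with 7.16, 8.71 and 18.4 CPM at KO day 3 against 7.57, 6.38 and 5.93 CPM in controls. Replicate 3 was high, and replicate 1 was below the highest control. The log2 fold change was 0.79 (SE 0.33, edgeR adjusted p = 0.28), and 0.26 without replicate 3. Spdef showed the same library standing out, with 7.93, 6.98 and 19.9 CPM at KO day 3, so that its log2 fold change was 0.67 (adjusted p = 0.42) and 0.02 without replicate 3. Gfi1 had 2.47, 1.08 and 2.41 CPM, with replicate 2 inside the control range (log2 fold change 1.08, adjusted p = 0.44). KO day 3 replicate 3 was the deepest library, with 519 Atoh1 counts and 562 Spdef counts, so these high values do not rest on few reads. It was not one of the libraries that stood apart, and its goblet marker sum was 2663 CPM of nuclear gene counts, beside 2409 and 1977 in replicates 1 and 2. Its enteroendocrine sum was also highest, at 242 beside 206 and 118. Its Paneth sum of 43070 lay between 34566 and 52997 in replicates 1 and 2, and its tuft sum of 22.1 between 41.1 and 17.2.

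The ligands were the members whose KO day 3 libraries all lay above the controls. Dll1 had 15.4, 13.8 and 16.9 CPM at KO day 3 against 12.6, 12.7 and 11.8 CPM in controls (log2 fold change 0.32, edgeR adjusted p = 0.62). Dll4 had 15.1, 9.19 and 14.5 CPM at KO day 3 against 7.57, 9.09 and 8.62 CPM in controls, with replicate 2 only just above (log2 fold change 0.61, adjusted p = 0.35). Jag1 had 5.54, 4.68 and 6.03 CPM at KO day 3 against 4.54, 4.66 and 2.92 CPM in controls (log2 fold change 0.42, adjusted p = 0.79). Groups did not overlap for these 3 of the 10 members, beside 30.1% of all genes, and none passed the test. Receptors and targets overlapped the controls at KO day 3: Notch1 had 21.2, 30.5 and 20.9 CPM, Notch2 10.2, 7.80 and 6.34 CPM, Hes1 48.0, 54.4 and 33.1 CPM, and Nrarp 36.8, 39.2 and 39.8 CPM.

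Between the tamoxifen groups, Notch1 and Dll4 were lower at KO day 4 than at KO day 3, and none of the 10 was higher. Among all tested genes 12.5% passed there, 6.52% higher and 6.03% lower, and at an unadjusted p under 0.05 there were 5 of the 10 beside 30.0% of all genes. For Notch1, the 3 KO day 4 values of 9.54 to 13.7 CPM were below the 3 KO day 3 values of 20.9 to 30.5 CPM (log2 fold change -1.12, SE 0.25, edgeR adjusted p = 0.018). That call was lost without KO day 3 replicate 2, KO day 4 replicate 2 or KO day 4 replicate 3 (adjusted p = 0.072, 0.064 and 0.0504). For Dll4, KO day 4 libraries had 3.87 to 7.61 CPM and KO day 3 libraries 9.19 to 15.1 CPM, with a log2 fold change of -1.07 (SE 0.32, adjusted p = 0.0497), which sat at the threshold and was lost in all 9 fits that left out a library (adjusted p = 0.052 to 0.12). Dll1 was lower in every KO day 4 library as well, 5.15 to 10.9 CPM against 13.8 to 16.9 CPM at KO day 3, without passing (log2 fold change -0.82, adjusted p = 0.073). Spdef was above every KO day 3 library in all KO day 4 libraries, by as little as 20.7 against 19.9 CPM, and also did not pass (log2 fold change 1.08, adjusted p = 0.082). It passed without KO day 3 replicate 3 (1.73, adjusted p = 0.012), with DESeq2 (1.12, adjusted p = 0.033) and with replicate numbers as a block (1.18, adjusted p = 0.046), and with library size alone its value was -0.46. Groups did not overlap for these 4 of the 10 members, beside 32.8% of all genes. Atoh1 did not separate the tamoxifen groups (log2 fold change 0.41, adjusted p = 0.45). KO day 3 replicate 3 had the highest value of all 9 libraries, and without it the log2 fold change was 0.94 and did not pass (adjusted p = 0.064). With library size alone it was -1.11 (adjusted p = 0.014).

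Ratios of counts between genes of the same library need no library size, and they are not moved by the scaling. The ratios to Notch1 divide members called higher at KO day 4 by the member called lower in the same libraries. Their separation was therefore given by that choice, and they do not show which gene moved. Atoh1 had 1.02, 1.80 and 1.47 counts per Notch1 count at KO day 4, against 0.329, 0.203 and 0.172 in controls. In the KO day 3 libraries the ratio was 0.337 and 0.286 in replicates 1 and 2 and 0.880 in replicate 3, the last still below every KO day 4 library. Per count of Nrarp, a target that did not pass, Atoh1 was at 0.368, 0.450 and 0.382 at KO day 4 and 0.232, 0.221 and 0.137 in controls. KO day 3 replicates 1, 2 and 3 were at 0.194, 0.222 and 0.462 per Nrarp count, the last above every KO day 4 library. Spdef had 1.54, 2.17 and 3.27 counts per Notch1 count at KO day 4, against 0.361, 0.215 and 0.202 in controls, so Spdef reads outnumbered Notch1 reads in all KO day 4 libraries, lengths aside. Gfi1 had 0.145, 0.483 and 0.822 counts per Notch1 count at KO day 4, against 0.0337, 0.0190 and 0.0417 in controls. The lowest KO day 4 ratio had a 95% exact binomial interval of 0.0819 to 0.243, which lies above the interval of the highest control, 0.0283 to 0.0593. Intervals and counts of this kind cover counting error only.

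**Figure D3:**
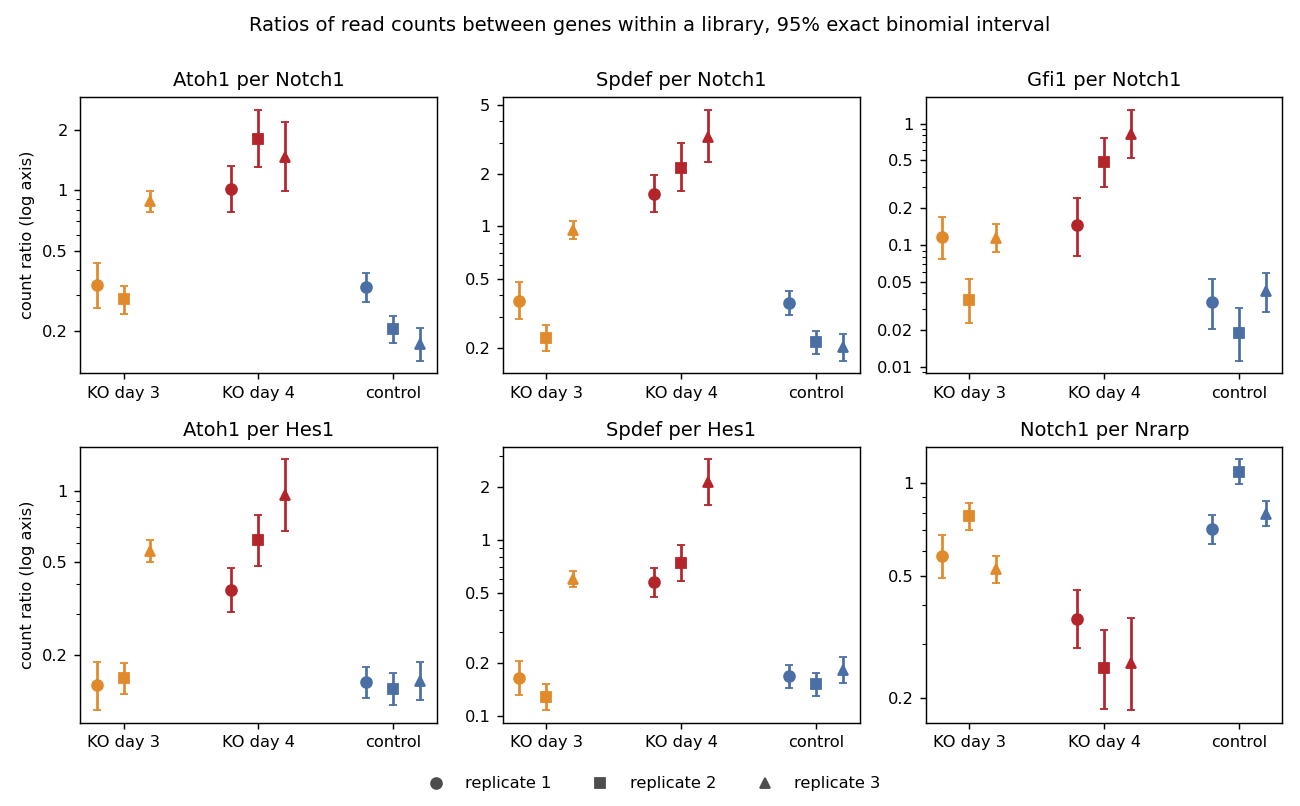
Ratios of read counts between 2 genes in each KO day 3, KO day 4 and control library (log axis), with 95% exact binomial intervals that cover counting error only; point shapes give the replicate. Atoh1, Spdef and Gfi1 per Notch1 are above every control in each KO day 4 library, and KO day 3 replicate 3 stands above the other KO day 3 libraries in the ratios of Atoh1 and Spdef. Notch1 was itself called lower at KO day 4, so the ratios to it do not show which gene moved.

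Hes1 and the gene its product represses, Atoh1, were compared in the same way. Atoh1 had 0.380, 0.617 and 0.957 counts per Hes1 count at KO day 4, against 0.154, 0.144 and 0.156 in controls, where the 3 libraries lay close together. KO day 3 replicates 1 and 2, at 0.149 and 0.160, were like the controls, and replicate 3 was at 0.556. Spdef per Hes1 was 0.575, 0.743 and 2.13 at KO day 4 against 0.169, 0.152 and 0.184 in controls. With Nrarp as the denominator, Notch1 per Nrarp was 0.362, 0.250 and 0.260 at KO day 4 against 0.705, 1.09 and 0.794 in controls, with no overlap, while Hes1 per Nrarp was 0.969, 0.729 and 0.399 at KO day 4 against 1.51, 1.53 and 0.873 in controls, with 1 KO day 4 library inside the control range. Among the secretory factors, Spdef per Atoh1 was 1.51, 1.20 and 2.23 at KO day 4 and 1.10, 1.06 and 1.17 in controls. The mean log2 count of the 3 secretory factors minus that of the 2 receptors and 2 targets averaged -2.02 ± 0.84 at KO day 3, -0.47 ± 0.54 at KO day 4 and -2.77 ± 0.23 in controls (SD, n = 3 each). KO day 4 was 2.30 above control on this scale, and no p is given because the 10 genes were chosen with results in view.

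Levels can be ordered between genes once divided by exon length, as CPM per kilobase. In controls Hes1 was highest at 21.5 ± 2.78, followed by Nrarp at 13.5 ± 2.92, and these 2 targets were apart from all other members (SD, n = 3). Spdef at 3.18 ± 0.368, Atoh1 at 3.12 ± 0.400 and Dll1 at 2.93 ± 0.119 CPM per kilobase came next, with neighbouring ranges that overlapped, then Dll4 at 2.19 ± 0.202 and Notch1 at 2.08 ± 0.417, which overlapped each other. Notch2 and Jag1 were level at 0.696 ± 0.101 and 0.693 ± 0.167 CPM per kilobase, and Gfi1 was lowest at 0.294 ± 0.139. The order at KO day 4 was Nrarp at 14.8 ± 0.173, Hes1 at 13.1 ± 5.24 and Spdef at 10.8 ± 3.02 CPM per kilobase, where the range of Hes1 overlapped those of Nrarp and Spdef but these did not overlap each other, then Atoh1 at 7.21 ± 0.789, apart from both neighbours. Below these, the ranges of Dll1, Dll4, Gfi1, Notch1, Notch2 and Jag1 overlapped from each to the next, from 2.05 ± 0.726 down to 0.445 ± 0.456 CPM per kilobase. The order at KO day 3 was near that of controls, led by Hes1 at 22.2 ± 5.35 and Nrarp at 15.0 ± 0.612 CPM per kilobase.

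The wider Notch machinery was described from a list of 37 genes that holds none of the 10, of which 31 were tested. Between KO day 4 and control 6 fell and 1 rose, beside 11.5% lower and 11.1% higher among all tested genes. Taken in both directions, the share that passed was near the 22.5% of all tested genes, but most of the calls were lower. The median log2 fold change was -0.20 beside -0.06 over all genes, and at KO day 3 1 fell and none rose, with a median of -0.16. The 6 that fell became 3 without any 1 of the control libraries or KO day 3 replicate 2, while 7 fell and 7 rose with both outlying libraries of the KO groups removed. The 1 that fell at KO day 3 passed in 1 of the 9 fits with a library left out. Ncstn, the nicastrin subunit of gamma-secretase, averaged 26.1 ± 1.91 CPM at KO day 4 and 51.2 ± 2.15 CPM in controls (SD, n = 3 each; edgeR adjusted p = 0.0024). Aph1a, another subunit, averaged 22.9 ± 3.27 CPM at KO day 4 and 47.2 ± 3.31 CPM in controls (adjusted p = 0.0026). Lfng, a Fringe glycosyltransferase that alters which ligands a receptor answers to, averaged 5.86 ± 4.67 CPM at KO day 4 and 23.4 ± 1.61 CPM in controls, a log2 fold change of -1.94 (adjusted p = 0.012). Psen2, a catalytic presenilin, fell by 1.02 on the log2 scale (adjusted p = 0.037). The other genes that passed are named after their values were seen: the gamma-secretase subunit Psenen (-1.20) and the ubiquitin ligase gene Dtx2 (-1.50) fell, and Fbxw7, whose product marks the Notch intracellular domain for degradation, rose (1.34). Taken as a complex after seeing those values, gamma-secretase had 6 of 7 listed subunit genes tested, all 6 with a log2 fold change below 0, and 4 fell, where 11.5% of all tested genes did. Only 2 fell without any 1 of the control libraries, KO day 3 replicate 2, or KO day 4 replicate 1 or 3. Rbpj, the DNA-binding partner of Notch, had a log2 fold change of 0.60 and did not pass (adjusted p = 0.23), nor did the sheddase gene Adam10 (-0.77, adjusted p = 0.074). The KO day 3 gene was Mib2, a ligase for Notch ligands (log2 fold change -1.79, adjusted p = 0.049).

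Of 13 other Hes, Hey and Id family genes and related repressors, 6 were tested, and Hes5, Hey1, Hey2 and Heyl were among the 7 with too few counts. Between KO day 4 and control 2 fell and 1 rose, where 22.5% of all tested genes passed. Id1, an inhibitor of basic helix-loop-helix factors, averaged 18.6 ± 9.61 CPM at KO day 4 and 87.4 ± 30.8 CPM in controls (log2 fold change -2.22, edgeR adjusted p = 0.0030), and Id3, of the same family, averaged 20.4 ± 6.41 CPM at KO day 4 and 35.6 ± 5.17 CPM in controls (adjusted p = 0.048). Hhex, a homeobox gene, rose on few reads, with 33 counts over the KO day 4 libraries and 4 counts over the controls (adjusted p = 0.011). Hes6, a Hes gene of secretory precursors, averaged 56.2 ± 4.96 CPM at KO day 4 and 78.5 ± 11.7 CPM in controls and did not pass (adjusted p = 0.23).

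Other secretory fate factors were described from a list of 25 genes, 22 of them tested. Of these, 5 rose and 2 fell at KO day 4 against control, where 11.1% of all tested genes were higher and 11.5% lower, with a median log2 fold change of 0.95, and none passed at KO day 3, where 0.440% of all genes did and the median was 0.34. With library size alone 2 rose and 9 fell at KO day 4 and the median was -0.94. Without KO day 3 replicate 1, KO day 3 replicate 2 or KO day 4 replicate 1 the number that rose was 9, 8 and 8 of 24 tested, and over the 9 fits with a library left out 1 to 3 fell. Dclk1, a kinase that marks tuft cells, averaged 26.2 ± 11.1 CPM at KO day 4 and 0.434 ± 0.133 CPM in controls (log2 fold change 5.90, edgeR adjusted p = 0.00052). Bhlha15, a basic helix-loop-helix factor of secretory cell maturation, averaged 57.0 ± 20.3 CPM at KO day 4 and 8.15 ± 5.30 CPM in controls (log2 fold change 2.80, adjusted p = 0.0015). Rab3d, a granule GTPase gene, rose by 1.49 on the log2 scale (adjusted p = 0.0042), and Mycl, a Myc family gene, fell by 1.30 (adjusted p = 0.0066). The remaining calls, named after their values were seen, were Foxa1 and Creb3l4, which rose, and Foxa2, which fell. Of 12 absorptive fate factors, 3 fell and none rose. In either direction that share was near the 22.5% of all tested genes that passed, but only 11.5% of all were lower. Vdr, the vitamin D receptor, fell by 1.46 on the log2 scale (edgeR adjusted p = 0.0011). The Ets factor Elf3 fell by 0.80 (adjusted p = 0.0099) and the intestinal homeobox factor Cdx2 by 0.58 (adjusted p = 0.038). The list median was -0.24. The plot of list members shows each gene.

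**Figure D4:**
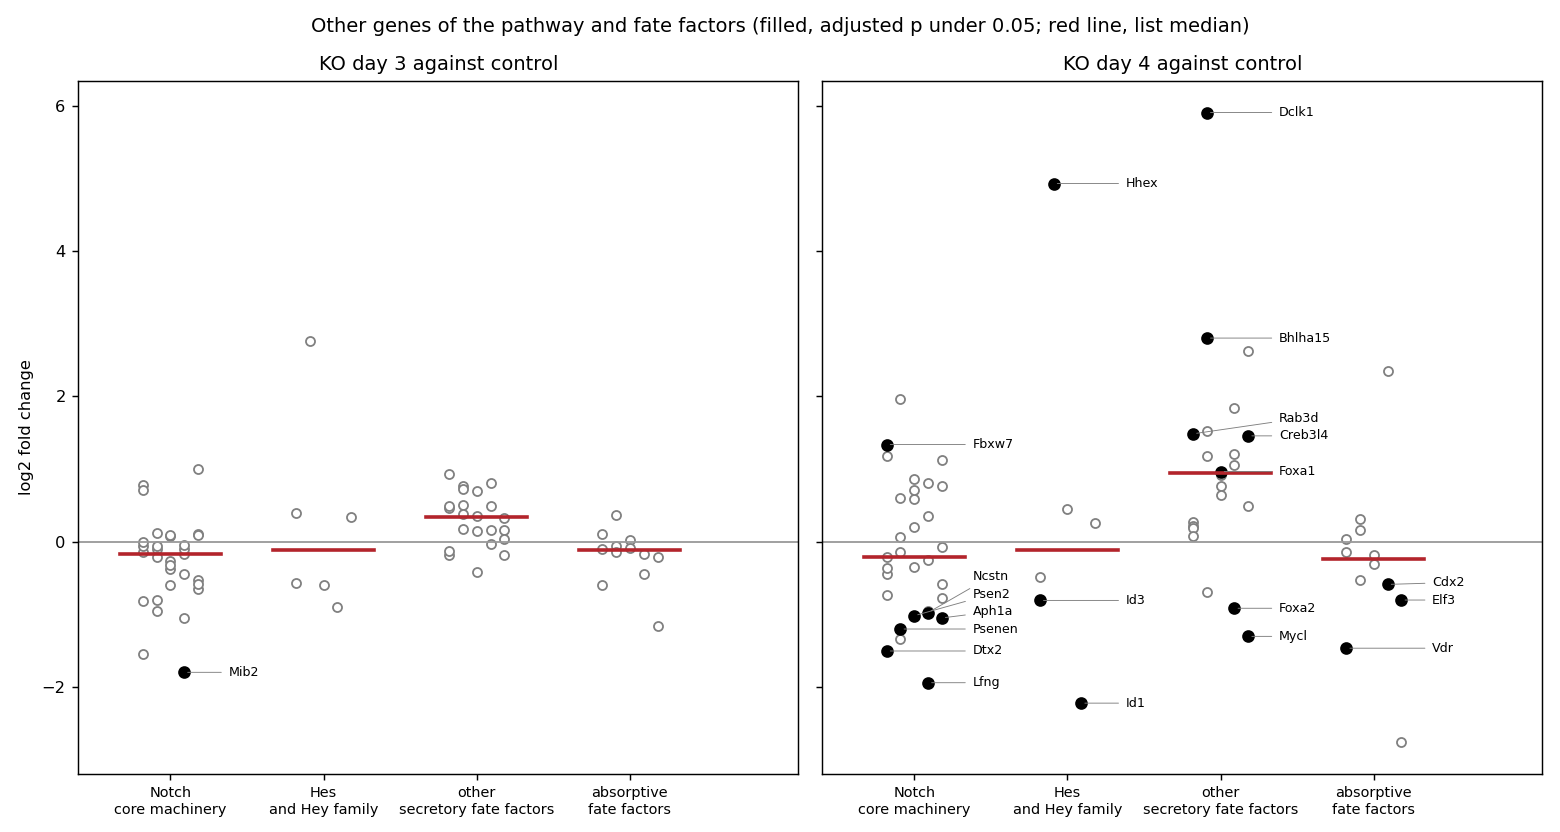
Log2 fold change (edgeR) of every tested gene of 4 lists, KO day 3 against control on the left and KO day 4 against control on the right; filled and named points have an adjusted p under 0.05 over 13405 genes and the red line is the list median. On the right the median is 0.95 for the other secretory fate factors (-0.94 with library size alone) and -0.20 for the Notch core machinery.

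Markers of epithelial cell types moved in the same libraries. Relative to controls, 12 of 13 tested Paneth markers, 8 of 14 goblet markers, 16 of 18 enteroendocrine markers and 12 of 14 tuft markers rose at KO day 4, 1 goblet marker fell, and 7 of 15 stem cell markers fell, beside 11.1% of all tested genes higher and 11.5% lower; with library size alone the goblet median, 1.48 on the log2 scale, was -0.43, with 2 higher and 6 lower. Goblet calls dropped to 4 without control replicate 2 or 3 and to 5 without KO day 4 replicate 3, and enteroendocrine calls to 10 without control replicate 3 or KO day 4 replicate 3. Of 13 tested enterocyte markers, 2 rose and 4 fell. The summed Paneth markers were 118417 to 157344 CPM of nuclear gene counts at KO day 4 against 21568 to 53643 in controls, and the goblet sum was 3534 to 5745 at KO day 4 against 1869 to 2371 in controls. The tuft sum was 215 to 551 at KO day 4 against 12.7 to 14.5 in controls, and the enteroendocrine sum was 476 to 847 at KO day 4 against 65.4 to 183 in controls. These sums are not adjusted by TMM. In the stem cell sum most counts were of 1 gene, Olfm4, with 66605 over the KO day 4 libraries and 676980 over the controls. The median log2 fold change of the 15 stem cell markers was -0.82 in the main fit. The stem cell sum was 3055 to 7931 at KO day 4 against 19331 to 23242 in controls, lowest in KO day 4 replicate 3. Within its group that library also had the lowest Hes1, Dll1 and Jag1 values and the highest Spdef and Gfi1 values. It had the highest Notch2, Dll4 and Nrarp values of the group as well, while Notch1 was lowest and Atoh1 highest in replicate 2. The part of these markers in the differences of the 10 genes was not tested, and a change in the cell types sorted cannot be told apart from a change of RNA per cell in bulk libraries.

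**Figure D5:**
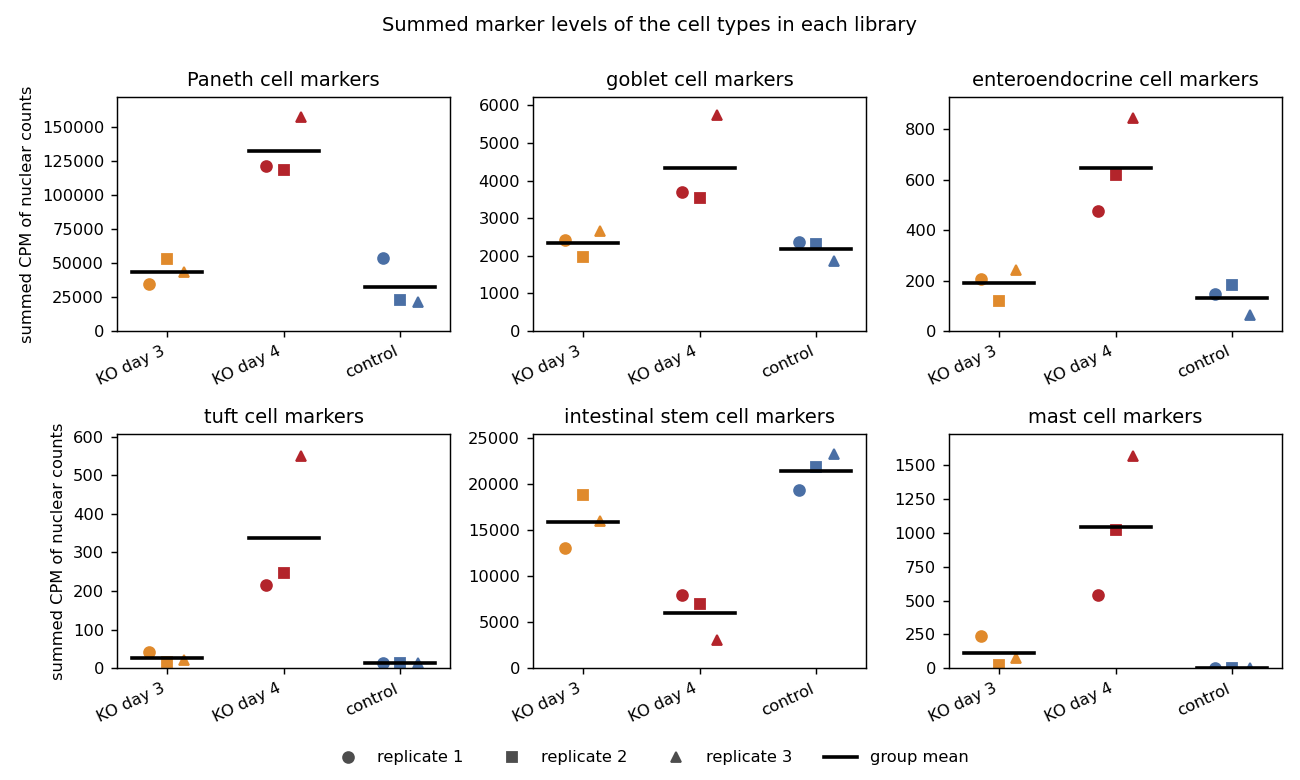
Summed counts of cell type marker lists, as CPM of nuclear gene counts, in each KO day 3, KO day 4 and control library; point shapes give the replicate and the bar is the group mean. Paneth, goblet, enteroendocrine, tuft and mast cell sums are above every control at KO day 4, and the stem cell sum, most of whose counts are of Olfm4, is below.

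Markers from outside the epithelium moved as well. All 12 tested mast cell markers rose at KO day 4 and 7 of 12 rose at KO day 3. The summed mast markers at KO day 3 were 240, 26.9 and 74.1 CPM of nuclear gene counts in replicates 1, 2 and 3. Gfi1 was lowest in replicate 2 there too, as were the goblet, enteroendocrine, tuft and other immune sums. The Paneth sum was highest in that replicate. The sum of 14 other immune markers was 63.6 to 165 at KO day 4 against 3.40 to 8.36 in controls. Without the 2 libraries that stood apart, 12 of 12 mast markers, 12 of 13 Paneth markers and 13 of 14 tuft markers still rose at KO day 4, Notch1 fell, and Atoh1 and Spdef rose.

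The genes whose log2 CPM followed Notch1 most closely over the 9 libraries were Qsox2, Marveld3, Pold1, Sorl1 and Ugt2b34, with Pearson correlations of 0.972 to 0.977 among 8038 candidate genes with a mean of at least 5 CPM. Qsox2, for example, averaged 19.9 ± 4.65 CPM at KO day 4 and 37.7 ± 3.75 CPM in controls. The genes closest to Atoh1 were Ube2k, Gsr, Pitpna, Cdyl and Arf1, with correlations of 0.956 to 0.975. Gsr, the glutathione reductase gene, averaged 170 ± 9.41 CPM at KO day 4, 139 ± 35.0 CPM at KO day 3 and 99.4 ± 7.78 CPM in controls. These correlations are descriptions over libraries that share 3 groups and their scaling.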

How the data were processed

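Per the labels' protocols, total RNA of sorted cells was made into mRNA libraries. HISAT2 2.0.4 and build GRCm38 are named by the submitters' processing notes; neither these notes nor the other sources used here give a counting tool or a strand setting. The values are raw gene counts as deposited, 57180 identifiers by 9 libraries, of which GENCODE M21 named 51933. Counts were tested as deposited with edgeR 4.0.16 in R 4.3.3: filterByExpr (minimum count 10), TMM scaling, 1 quasi-likelihood fit of all 9 libraries by group, 3 contrasts and Benjamini-Hochberg adjustment over 13405 genes, with a threshold of 0.05. The SE of a log2 fold change was its size divided by the square root of F. The procedure was first run on simulated counts with known fold changes. The simulation held no mitochondrial shift at KO day 4 and changed no gene as scarce as Gfi1, so it does not check the scaling. Alternatives included DESeq2 1.42.0, limma 3.58.1, other scalings and leaving out each library. All pairs of libraries within a group differed beyond sampling noise (chi-square over degrees of freedom 13.8 to 96.9).

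The 10 genes and the lists were chosen with earlier results of these data known, so no p is adjusted over a list alone and no set test is given. All 10 genes are named; from each list the genes with the smallest adjusted p at KO day 4 against control are named, up to 4. Further list genes are named outside that rule, chosen after their values were seen. Promoters came from RefSeq tables on GRCm38.p6. Same-numbered libraries did not deviate together in every pair, so replicate numbers were not used as pairs.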

Additional observations from a re-analysis of the deposited data

Results flagged for a closer look

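These results are listed because the change against control differed between the tamoxifen groups. Notch1 was lower at KO day 4 than at KO day 3 by a tested difference (log2 fold change -1.12, edgeR adjusted p = 0.018), with a log2 fold change against control of -1.41 at KO day 4 and -0.29 at KO day 3. Dll4 was lower as well (-1.07, adjusted p = 0.0497), with -0.46 at KO day 4 and 0.61 at KO day 3 against control. Dll1 is listed because every KO day 4 library was below every control and every KO day 3 library above; the direct difference of -0.82 did not pass (adjusted p = 0.073). Both comparisons against control use the same 3 control libraries.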

How the results depend on the processing

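Scaling sets the direction of many values here. Scaling by library size alone moved the median over all genes, as log2 fold change, to -1.95 at KO day 4 against control, -0.39 at KO day 3 against control and -1.54 at KO day 4 against KO day 3. With mitochondrial genes left out and library size alone, an alternative chosen after seeing the data, the medians were -0.55, -0.24 and -0.30. Relative to those shifts the secretory factors stayed above the bulk, but not all of their signs held with library size alone. At KO day 4 against control library size alone gave -0.67 for Atoh1, -0.15 for Spdef and -1.77 for Nrarp. Gfi1 was at 0.42 (edgeR adjusted p = 0.56), and 7 of the 10 genes then passed, all lower. Leaving out mitochondrial genes as well gave 0.71 for Atoh1 (adjusted p = 0.13) and -0.38 for Nrarp. Gfi1 and Spdef were then higher, at 1.85 and 1.25 (adjusted p = 0.042 and 0.027). Notch1 fell in all 20 alternatives, and Spdef passed in 19 of 20, Atoh1 in 14 of 20 and Gfi1 in 14 of 19.

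The numbers of genes passing were 3021 for KO day 4 and 59 for KO day 3, each against control, and 1682 for KO day 4 against KO day 3. Library size alone gave 11057, 518 and 9508, and 5086, 267 and 2735 with mitochondrial genes left out too. For KO day 3 against control, 317 passed with no filter on low counts, 876 with DESeq2, 1423 with limma voom, 337 with only the groups compared and 646 without the 2 libraries that stood apart. For KO day 4 against KO day 3, DESeq2 gave 2879 and a fit of only the groups compared gave 806. Leaving out each library in turn gave 1588 to 3839, 0 to 345 and 648 to 1802 genes. Of the 10 members, 2 to 5 passed at KO day 4 against control and 0 to 2 at KO day 4 against KO day 3 with a library left out. In the last comparison 1 member passed with RLE factors, a mean CPM of at least 5, limma voom, only the groups compared or without the libraries that stood apart, 4 with DESeq2, 8 with library size alone and 4 with mitochondrial genes left out as well.

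Members near 0 changed sign, and the cause was not tested. With library size alone, members further from 0 changed sign as well. With a library left out, Notch2 ranged from -0.63 to 0.13 at KO day 4 against control, from -0.083 to 0.26 at KO day 3 against control and from -0.73 to 0.027 at KO day 4 against KO day 3. Under the same alternatives Hes1 ranged from -0.087 to 0.23 at KO day 3 against control, and Nrarp from -0.058 to 0.0031 at KO day 4 against KO day 3. In the KO day 3 comparison with control, library size alone gave -0.26 for Notch2, -0.32 for Hes1, -0.24 for Nrarp and -0.045 for Dll1, and leaving out mitochondrial genes as well gave -0.13, -0.18 and -0.085 for the first 3. Notch2 there was -0.067 with limma voom and -0.084 without the libraries that stood apart. Between the tamoxifen groups, Nrarp was 0.0050 with RLE factors, 0.069 with a mean CPM of at least 5 and 0.0038 with DESeq2. Library size alone gave -1.11 for Atoh1, -0.30 for Gfi1 and -0.46 for Spdef there. Their values in the main fit were 0.41, 1.30 and 1.08, and the median over all genes with library size alone was -1.54.

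Correlations of same-numbered deviations ran from -0.06 to 0.18, and 5 of 9 libraries matched their own replicate number best. The level expected without pairing was not worked out, so a link between same-numbered libraries is not excluded. With the number as a replicate block, 2680, 9 and 1537 genes passed in the 3 comparisons, and 5, 0 and 3 members. Hes1 passed under the block at KO day 4 against control (-0.77, adjusted p = 0.031) and against KO day 3 (-0.79, adjusted p = 0.041).

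For the Notch machinery list, library size alone gave 21 of 31 genes lower and none higher at KO day 4 against control. Depth limits Gfi1 and Jag1 at KO day 4, which had 17 to 37 and 2 to 35 counts.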
